A study of Mus musculus with 20 samples.

Results

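The genes described here belong to the integrated stress response (ISR) and the unfolded protein response (UPR). They are Atf4, Ddit3, Trib3, Chac1, Asns, Sesn2, Atf5, Ppp1r15a, Xbp1 and Herpud1, chosen by name and kept if the expression table held them, which all 10 of them did among its 11075 genes. NIH3T3, a fibroblast line derived from mouse embryos, was grown in bicarbonate-buffered medium and profiled by bulk RNA sequencing in 5 groups of 4 libraries. The cells were shifted to 1% CO2 with oxygen held constant for 2 h or for 4 h, or received 18 mM NaOH while remaining at 5% CO2 for 2 h or for 4 h, and the control was untreated cells at 5% CO2 collected at 0 h. NaOH served in the study as an alkaline treatment without a fall in CO2. The study reports that low CO2 also made the medium alkaline, to a pH similar to that under NaOH. The direct comparison of both treatments therefore asks where they differ. A difference can come from a change in either of them, and is to be read beside the values against 0 h. No untreated library at 2 or 4 h was analysed here, so that time in culture and handling cannot be told apart from treatment in the comparisons with 0 h, and the same 4 control libraries enter each of them.

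In the ISR, kinases that sense amino acid shortage, endoplasmic reticulum (ER) stress, viral RNA or heme shortage phosphorylate the translation initiation factor eIF2, which lowers protein synthesis while translation of the Atf4 message increases. ATF4 then binds C/EBP-ATF response elements (CAREs) and induces genes of amino acid supply, of redox balance and of feedback control, among them the phosphatase subunit that reverses eIF2 phosphorylation. The UPR adds the IRE1 and ATF6 branches, in which the transcription factors XBP1 and ATF6 induce ER chaperones and the machinery that degrades misfolded ER proteins. Much of this control acts on translation, on splicing of Xbp1 or on protein cleavage, none of which is seen in counts of transcript 3′ ends.

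Each value is a count of unique molecular identifiers (UMIs, molecule tags), scaled to a common library size with edgeR's TMM factors and called a normalized count below. A molecule is counted once at its 3′ end, whatever its length, and the means of the 10 genes in the control went from 7.196 for Sesn2 to 2450 for Atf4. Libraries held 1325293 to 5640523 UMIs, with a median of 3343835.5. All 10 fibroblast markers looked up were in the table, with summed normalized counts of 119900 to 161500 per library, whereas 0 of 3 endothelial and 0 of 3 fat cell markers were listed and the epithelial markers, of which 1 of 4 was listed, summed to at most 8.91. Of the immune markers 2 of 4 were listed, without Ptprc and Adgre1, and summed to 97.44 to 202, and of the muscle markers Des alone was listed, at 25.97 to 28.01 at 2 h of NaOH, 9.303 to 13.7 at 4 h of 1% CO2 and 16.8 to 27.85 in the control. The part of these in the results was not tested. On the first principal component of all tested genes, replicate 3 of 1% CO2 at 2 h lay at -13.2, against -9.29 to -8.31 for the other libraries of its group. For the 10 genes, the calls at 2 h of 1% CO2 are given with and without this library. The NaOH groups also spread on this component, over 24.7 to 30.9 at 2 h and 24.7 to 31.2 at 4 h. The mean correlation of a library with the others of its group was 0.9788 for replicate 3 of 1% CO2 at 2 h. It was 0.9782 for replicate 2 of NaOH at 2 h. In bulk RNA a change in the cells present and a change in RNA per cell cannot be told apart. The study's text calls the 4 libraries of a group biological replicates, while the labels do not say whether they were separate cultures. The p-values weigh a difference against the spread between libraries of a group, estimated over all groups together.

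To show which of the elements bound by ISR and UPR factors lie at these genes, the promoter windows, 250 bases before and 50 after the annotated start, were searched on both strands in RefSeq sequence (GRCm38.p6), and all 10 genes matched, Atf5 with 2 starts. The motifs were the CARE core TGATGNAA, found in 3.97% of 32851 promoters of this length, the cyclic AMP response element TGACGTCA in 1.79%, the UPR element TGACGTGG in 0.676%, the ER stress element (ERSE) in 0.119% and the type II ER stress element (ERSE-II) in 0.0365%. The UPR element shares its first letters with the cyclic AMP response element, and ERSE and ERSE-II end in the same letters. A CARE core lay 193 to 186 bases before the Chac1 start (chr2:119351009-119351096, plus strand shown), 23 to 16 bases before the Asns start (chr6:7693210-7693272, minus strand), 112 to 105 bases before the Herpud1 start (chr8:94386277-94386427, plus strand) and 14 to 21 bases after the Trib3 start (chr2:152344028-152344057, minus strand), counting the first transcribed base as 0. Herpud1 also held the type II ER stress element 52 to 42 bases before its start, and Ppp1r15a the cyclic AMP response element 12 to 5 bases before its start (chr7:45526269-45526320, minus strand). No match was found for the other 5 genes. The windows are shown 5′ to 3′ along each gene with the matches in capitals. They are shown for every one of the 10 genes with a match, whether or not its count changed. A match describes letters and not binding.
Trib3: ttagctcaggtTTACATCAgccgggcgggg
Chac1: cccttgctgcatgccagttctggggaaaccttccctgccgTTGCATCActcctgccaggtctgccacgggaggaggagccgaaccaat
Asns: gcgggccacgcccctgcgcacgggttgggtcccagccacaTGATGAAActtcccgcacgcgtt
Ppp1r15a: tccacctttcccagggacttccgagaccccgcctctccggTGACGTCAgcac
Herpud1: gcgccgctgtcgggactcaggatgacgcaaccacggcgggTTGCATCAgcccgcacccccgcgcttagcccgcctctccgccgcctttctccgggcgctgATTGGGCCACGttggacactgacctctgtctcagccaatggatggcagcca

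Trib3 and Ppp1r15a were lower than the control in every library of 1% CO2, and the other 8 genes had log2 fold changes between -0.46 and 0.41 at either time. In NaOH, Atf4 was higher than at 0 h at both times and Herpud1, Xbp1 and Chac1 were higher at 2 h, while Trib3 and Ddit3 were lower at both times. At 4 h Atf4 was also higher in 1% CO2. With edgeR's quasi-likelihood test over 9726 genes and Benjamini-Hochberg adjustment, a gene is said to have risen, fallen or changed where its adjusted p did not exceed 0.05, and to be called where the change was also at least 2-fold, a log2 fold change of 1 in size. At 2 h of 1% CO2, 0 of the 10 genes rose and 4 fell, where 16% of all genes rose and 12.4% fell, and 2 of the 10 were called against 5.53% of all genes. After 4 h of 1% CO2, 2 rose, 4 fell and 0 were called, where 20.3% of all genes rose, 18.9% fell and 8.04% were called. With NaOH, 6 rose, 2 fell and 1 was called at 2 h, where 23% of all genes rose, 20.4% fell and 12% were called. After 4 h of NaOH, 2 rose, 5 fell and 1 was called, where 28.2% of all genes rose, 26.9% fell and 15.6% were called. The median log2 fold change of the 10 genes was -0.228 after 2 h of 1% CO2, -0.108 after 4 h, 0.239 after 2 h of NaOH and -0.339 after 4 h, where the median of all genes lay between -0.026 and 0. Since many genes of the table changed in each comparison, these counts are to be read against those shares. At an unadjusted p under 0.05, 0 of the 10 genes were higher at 2 h of 1% CO2 as well, and DESeq2 called 0 at 4 h.

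**Figure D1:**
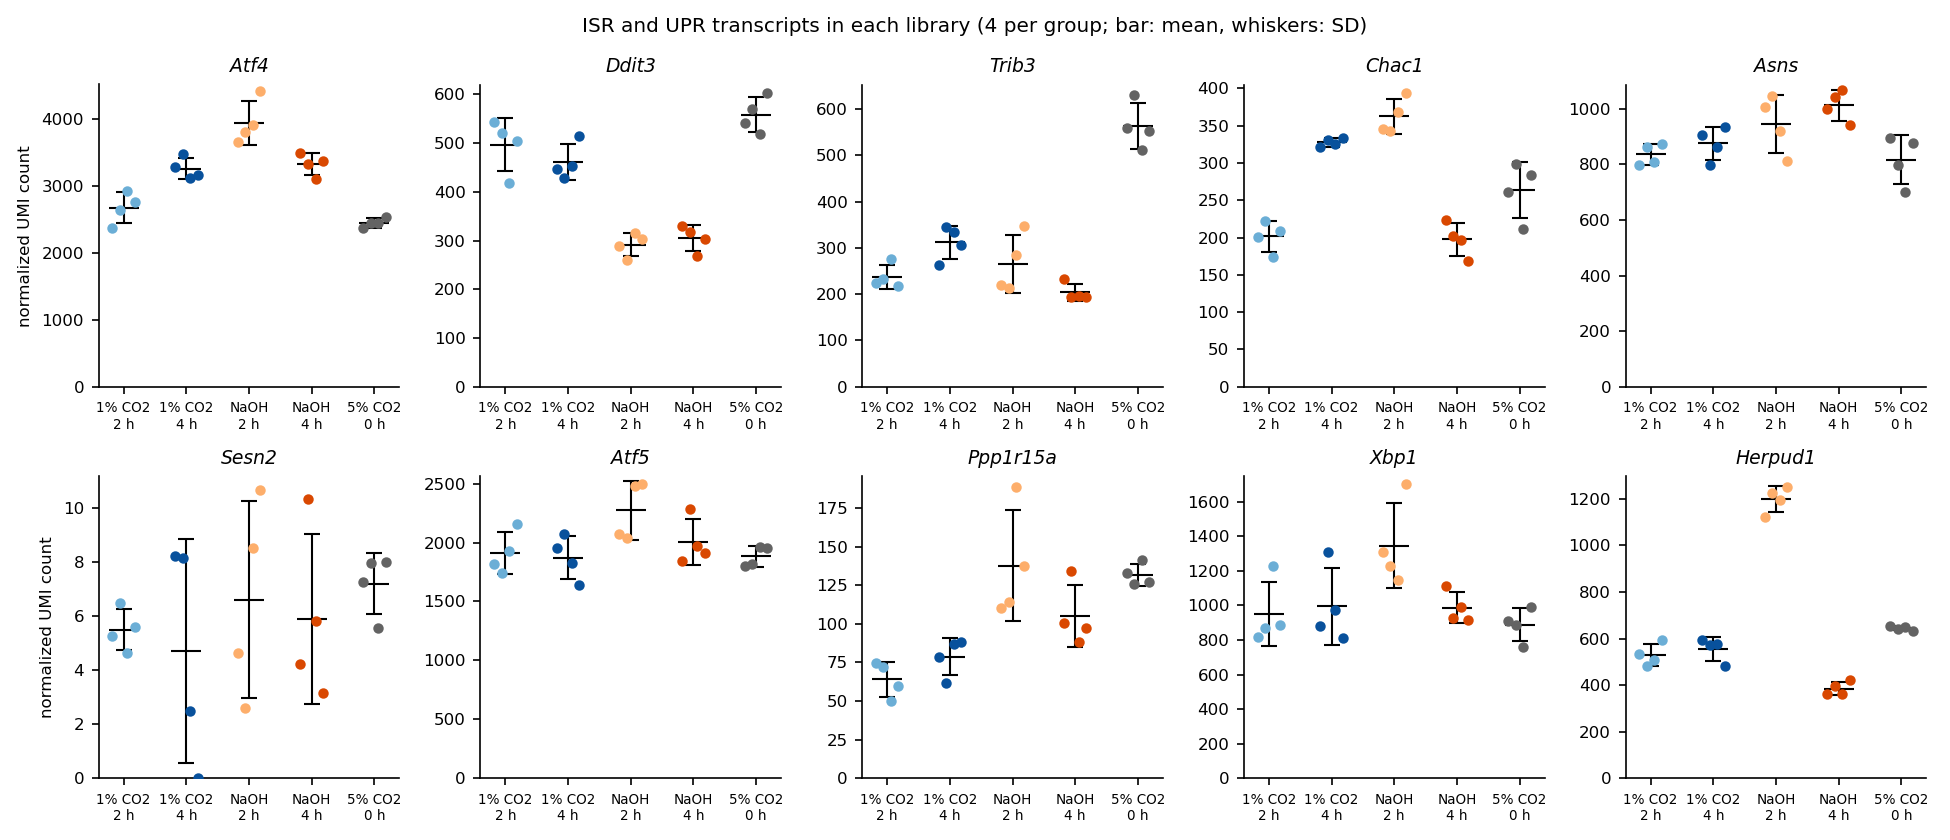
Normalized UMI counts (linear vertical axes from 0) of the 10 ISR and UPR genes in each of the 20 libraries, grouped by treatment, with the mean as a bar and the SD as whiskers (n = 4 per group). Trib3 lay between 193 and 347 in all treated libraries and between 510.2 and 630.3 in the control, and Herpud1 was highest at 2 h of NaOH and lowest at 4 h of NaOH.

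**Figure D2:**
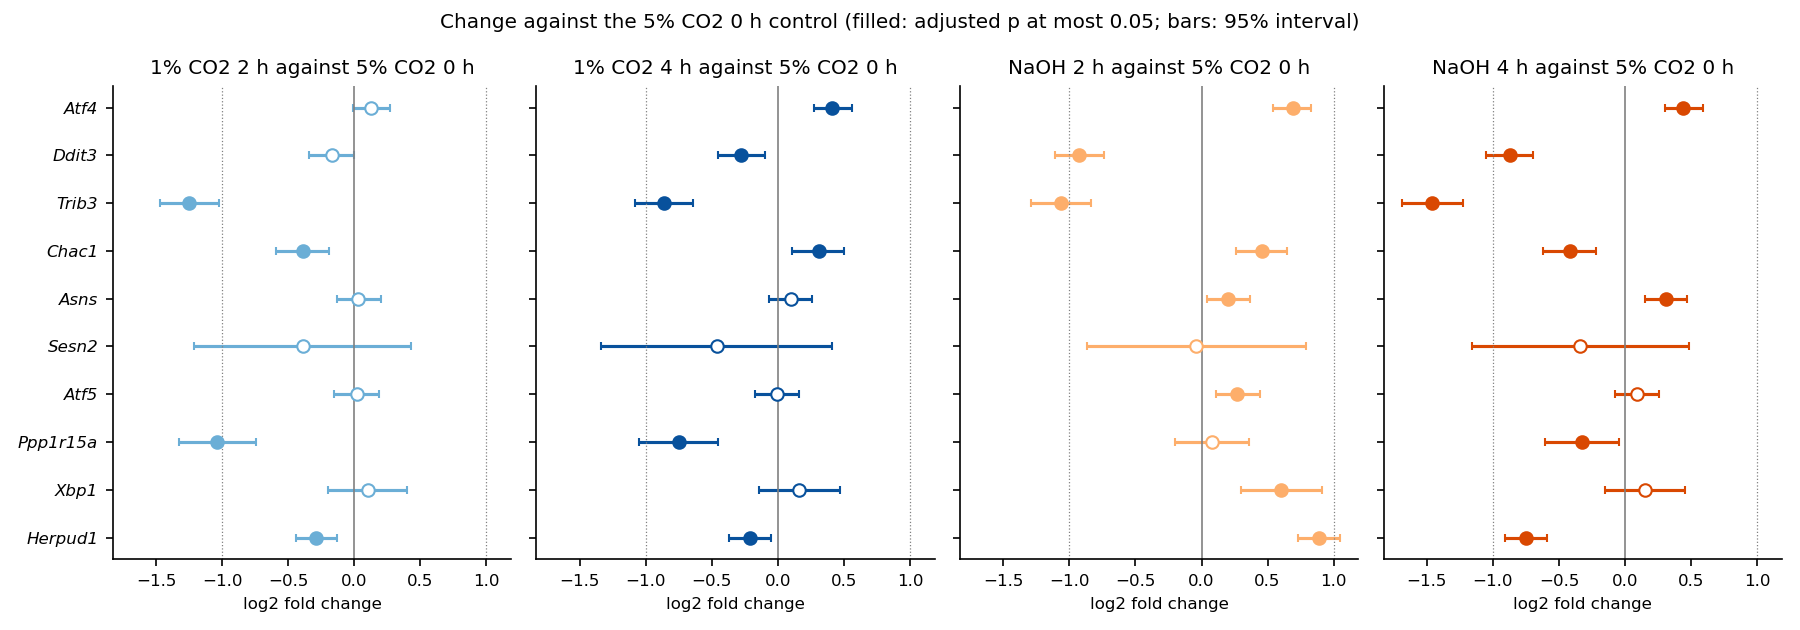
Log2 fold change of each gene against 5% CO2 at 0 h (horizontal axis) in the 4 treated groups, with 95% intervals as bars, filled points for an adjusted p of at most 0.05 and dotted lines at 2-fold. Trib3 was lower in all 4 panels, whereas Herpud1 and Chac1 had opposite signs at 2 and 4 h of NaOH.

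Among the transcription factors, Atf4 (chr15:80255184-80257545, GRCm38), the effector of the ISR, was among the more abundant transcripts, ranking 184 of 9726 genes in the control. Atf4 had 2377, 2646, 2928 and 2767 normalized counts at 2 h of 1% CO2 and 3291, 3481, 3116 and 3163 at 4 h. With NaOH it had 3659, 3802, 3919 and 4416 at 2 h and 3491, 3337, 3104 and 3373 at 4 h, against 2367, 2454, 2441 and 2537 in the control. All libraries at 2 h of NaOH lay above every other library, all libraries at 4 h of either treatment lay above the control, and those at 2 h of 1% CO2 overlapped it. Atf4 rose by 0.69 on the log2 scale at 2 h of NaOH (1.61-fold, SE 0.074, adjusted p 1.1e-09), by 0.44 at 4 h of NaOH (SE 0.074, adjusted p 4.6e-06) and by 0.41 at 4 h of 1% CO2 (1.33-fold, SE 0.074, adjusted p 2.4e-05). In 1% CO2 at 2 h the difference was 0.13 (95% interval -0.01 to 0.27, adjusted p 0.2).

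Ddit3 (chr10:127290793-127296291), which encodes CHOP, a transcription factor of prolonged ER stress, moved the other way. Its normalized counts were 543, 522, 419 and 505 at 2 h and 448, 429, 453 and 515 at 4 h of 1% CO2. They were 289.7, 259.7, 316 and 302 at 2 h and 329.6, 317, 268 and 303 at 4 h of NaOH, against 541, 569, 519 and 603 in the control. The NaOH libraries lay below all others at both times, while those at 2 h of 1% CO2 overlapped the control. Ddit3 fell by 0.93 on the log2 scale at 2 h of NaOH (0.526-fold, SE 0.093, adjusted p 2.4e-10) and fell by 0.87 at 4 h (SE 0.091, adjusted p 3.6e-10). At 4 h of 1% CO2 it fell by 0.28 (SE 0.089, adjusted p 0.012), a change lost without control replicate 4 (log2 fold change -0.22, adjusted p 0.069). Its log2 fold change at 2 h of 1% CO2 was -0.17 (adjusted p 0.16), or -0.08 without replicate 3 of that group (adjusted p 0.53). Ddit3 did not follow Atf4, since Atf4 was higher and Ddit3 lower at both times of NaOH. Neither gene held a searched motif.

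Atf5 (chr7:44812256-44816658), a transcription factor related to ATF4 that is also translated under eIF2 phosphorylation, had 2074, 2041, 2476 and 2497 normalized counts at 2 h of NaOH, against 1798, 1818, 1963 and 1950 in the control. The groups did not overlap. Atf5 rose by 0.27 on the log2 scale (SE 0.085, adjusted p 0.0091), which library size alone reduced to 0.09 (adjusted p 0.36). At 4 h of NaOH it was 1842 to 2288, and in 1% CO2 it ranged over 1739 to 2153 at 2 h and over 1643 to 2072 at 4 h, with log2 fold changes against the control of 0.09, 0.02 and -0.01 that did not pass the test. Atf5 overlaps Nup62 and Il4i1 on the opposite strand, whether reads were assigned by strand was not found in the methods or labels, and its count is uncertain to that extent.

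Among the feedback genes, Trib3 (chr2:152337425-152344060) encodes a pseudokinase that binds ATF4 and CHOP, and Ppp1r15a encodes GADD34, the subunit that directs protein phosphatase 1 to phosphorylated eIF2. Trib3 had 223, 233, 275 and 218 normalized counts at 2 h and 262, 344, 333 and 306 at 4 h of 1% CO2. With NaOH it had 220.1, 213, 284 and 347 at 2 h and 232, 195, 196 and 193 at 4 h, against 559, 630.3, 510.2 and 553 in the control. Every treated library was below every control library. Trib3 fell by 1.25 on the log2 scale at 2 h of 1% CO2 (0.422-fold, SE 0.11, adjusted p 1e-10) and fell by 0.86 at 4 h (SE 0.11, adjusted p 1.9e-07). With NaOH it fell by 1.06 at 2 h (0.478-fold, SE 0.12, adjusted p 2.2e-09) and fell by 1.46 at 4 h (0.363-fold, SE 0.12, adjusted p 8.3e-13). The call at 2 h of NaOH fell below 2-fold when NaOH replicate 1 or 2 was left out (log2 fold changes -0.97 and -0.99), with the change still passing the test. Without replicate 3 of 1% CO2 at 2 h, Trib3 was lower by a log2 fold change of -1.31.

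Ppp1r15a (chr7:45522917-45526268), which overlaps Tulp2 on the opposite strand and whose count is uncertain to the extent that reads were assigned without strand, had 74.7, 72.1, 50.1 and 59.5 normalized counts at 2 h and 78.6, 61.6, 86.7 and 88.5 at 4 h of 1% CO2. With NaOH it had 110.5, 114, 189 and 137 at 2 h and 101, 134, 88.3 and 97.1 at 4 h, against 133, 126, 142 and 127 in the control. All libraries of 1% CO2 were below all control libraries, whereas both NaOH groups overlapped the control. Ppp1r15a fell by 1.04 on the log2 scale at 2 h of 1% CO2 (0.488-fold, SE 0.15, adjusted p 1.7e-06) and fell by 0.75 at 4 h (0.595-fold, SE 0.15, adjusted p 0.00017). The change at 2 h remained without replicate 3 of that group, but was then under 2-fold (log2 fold change -0.92, adjusted p 1.5e-05), and it came to the 2-fold limit or under it without replicate 4 of that group (adjusted p 1.9e-05), without control replicate 3 (adjusted p 1.7e-05) and with DESeq2 (log2 fold change -0.98). After 2 h of NaOH the difference was 0.08 (95% interval -0.2 to 0.36), and at 4 h it fell by 0.33 (SE 0.14, adjusted p 0.047), which did not pass the test when any of 7 of the 8 libraries was left out, all except NaOH replicate 2. Ppp1r15b, its constitutive counterpart, is described with the related lists.

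Among the metabolic targets, Chac1 (chr2:119351242-119354326), which degrades glutathione and is induced by ATF4, gave opposite signs in the 2 treatments at both times. It had 201, 223, 173 and 209 normalized counts at 2 h and 321, 330.2, 326 and 333 at 4 h of 1% CO2. With NaOH it had 345, 343, 368 and 394 at 2 h and 223, 203, 196 and 169 at 4 h, against 261, 298, 212 and 284 in the control. All libraries at 2 h of NaOH and at 4 h of 1% CO2 lay above the control, whereas at 2 h of 1% CO2 and at 4 h of NaOH all but 1 library lay below the lowest control library. Chac1 fell by 0.39 on the log2 scale at 2 h of 1% CO2 (SE 0.1, adjusted p 0.0032) and rose by 0.31 at 4 h (SE 0.1, adjusted p 0.014), whereas with NaOH it rose by 0.46 at 2 h (SE 0.1, adjusted p 0.00031) and fell by 0.42 at 4 h (SE 0.1, adjusted p 0.00076). The fall at 2 h of 1% CO2 was -0.32 without replicate 3 of that group (adjusted p 0.02). The rise at 4 h of 1% CO2 did not pass the test without control replicate 3 (adjusted p 0.059), nor when counts were scaled by library size alone (log2 fold change 0.19, adjusted p 0.12), a scaling under which the median of all genes in this comparison was -0.122, against -0.008 with TMM.

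Asns (chr6:7675165-7693209), asparagine synthetase and a standard ATF4 target, had 999, 1041, 1068 and 941 normalized counts at 4 h of NaOH, against 893, 797, 698 and 875 in the control. The groups did not overlap, and Asns rose by 0.31 on the log2 scale (SE 0.083, adjusted p 0.0019), which library size alone reduced to 0.12 (adjusted p 0.22). At 2 h of NaOH it was 811 to 1044 and rose by 0.2 (SE 0.084, adjusted p 0.047), which was lost without NaOH replicate 1, 2 or 3 or control replicate 2, 3 or 4. At 2 and 4 h of 1% CO2 its log2 fold changes were 0.03 and 0.1 and did not pass the test. Sesn2 (chr4:132492804-132510456), a stress-induced regulator of mTORC1, overlaps Gm12981 on the same strand, and its count is uncertain to the extent that shared reads were not assigned to it. It had 0 to 13 UMIs in a library, and its 95% intervals, such as -1.34 to 0.41 at 4 h of 1% CO2, do not allow a statement at these counts. The 1 library with a count of 0 allows up to 3.

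Of the UPR genes, Xbp1 (chr11:5520641-5525993) encodes the transcription factor of the IRE1 branch, and Herpud1 an ER membrane protein of ER-associated degradation. Xbp1 had 1308, 1226, 1149 and 1702 normalized counts at 2 h of NaOH, against 911, 889, 759.8 and 990.2 in the control. The groups did not overlap. Xbp1 rose by 0.6 on the log2 scale (SE 0.15, adjusted p 0.0039), and in the other treated groups its log2 fold changes were 0.1, 0.16 and 0.15 and did not pass the test. In 1% CO2 it ranged from 818 to 1228 at 2 h and from 811 to 1312 at 4 h, with a single high library at each time.

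Herpud1 (chr8:94386429-94395371) moved in both directions with NaOH. It had 536, 481, 508 and 595 normalized counts at 2 h and 596, 573, 575 and 482 at 4 h of 1% CO2. With NaOH it had 1121, 1226, 1194 and 1249 at 2 h and 361, 395, 364 and 422 at 4 h, against 654, 643, 652 and 634 in the control. The groups at 2 and 4 h of NaOH lay above and below all others, and the 1% CO2 libraries lay between those at 4 h of NaOH and the control. Herpud1 rose by 0.89 on the log2 scale at 2 h of NaOH (1.85-fold, SE 0.079, adjusted p 1.2e-11) and fell by 0.75 at 4 h (0.597-fold, SE 0.082, adjusted p 1.2e-09). It fell by 0.29 at 2 h of 1% CO2 (SE 0.08, adjusted p 0.006) and fell by 0.21 at 4 h (SE 0.081, adjusted p 0.036), the last of which was lost without replicate 4 of that group or any 1 of the 4 control libraries. Without replicate 3 of 1% CO2 at 2 h, the log2 fold change there was -0.26 (adjusted p 0.022). Herpud1 overlaps the antisense gene Gm15890, so its count is uncertain to the extent that reads were assigned without strand.

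The direct comparison of 1% CO2 with NaOH asks whether these treatments, both of them alkaline, differ at a matched time. At 2 h, 1 of the 10 genes was higher and 6 were lower in 1% CO2 than in NaOH, where 14.9% of all genes were higher and 17.1% lower, and 2 were called, against 6.51%. At 4 h, 4 were higher and 2 lower, where 16.3% of all genes were higher and 19.2% lower, with 0 called by edgeR or DESeq2, against 6.48%. The median log2 fold change was -0.43 at 2 h and -0.008 at 4 h, where that of all genes was -0.008 and -0.004. Herpud1 was lower in 1% CO2 at 2 h by a log2 fold change of -1.18 (SE 0.081, adjusted p 2.3e-14) and higher at 4 h by 0.53 (SE 0.083, adjusted p 3.8e-06). Chac1 was lower at 2 h by -0.85 (SE 0.1, adjusted p 3.7e-08) and higher at 4 h by 0.72 (SE 0.1, adjusted p 9.1e-07). Ddit3 was higher in 1% CO2 at both times, by 0.76 and 0.6 (adjusted p 5.5e-08 and 4e-06), and its libraries did not overlap those of NaOH at either time. Trib3 was higher at 4 h by 0.6 (SE 0.12, adjusted p 0.00018), with a log2 fold change of -0.18 at 2 h (adjusted p 0.27). Without replicate 3 of 1% CO2, the values at 2 h were -1.15 for Herpud1, -0.78 for Chac1, 0.84 for Ddit3, -0.25 for Trib3, -0.6 for Atf4, -0.64 for Xbp1 and -0.25 for Atf5, and Trib3 again did not pass the test while the others did.

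Ppp1r15a was lower in 1% CO2 than in NaOH at 2 h by a log2 fold change of -1.11 (SE 0.16, adjusted p 1.1e-06), with 74.7 as the highest library of 1% CO2 and 110.5 as the lowest of NaOH. The call fell to the 2-fold limit without replicate 3 of 1% CO2 (adjusted p 7.6e-06), below it without replicate 3 of NaOH (log2 fold change -0.92), and below it with library size alone (-0.99). At 4 h it was lower by -0.42 (SE 0.16, adjusted p 0.043), which did not pass the test without replicate 1 or 2 of either group. Atf4 was lower in 1% CO2 at 2 h by -0.56 (SE 0.074, adjusted p 2e-07) and differed by -0.03 at 4 h (95% interval -0.17 to 0.12, adjusted p 0.81). Xbp1 was lower at 2 h by -0.5 (adjusted p 0.018) and Atf5 by -0.25 (adjusted p 0.021). Xbp1 did not pass the test without replicate 1 or 2 of 1% CO2 or replicate 4 of NaOH, and Atf5 without replicate 1 or 2 of 1% CO2 or 3 or 4 of NaOH. Asns was lower at 4 h by -0.21 (adjusted p 0.046), which was lost without replicate 1, 2 or 3 of either group.

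**Figure D3:**
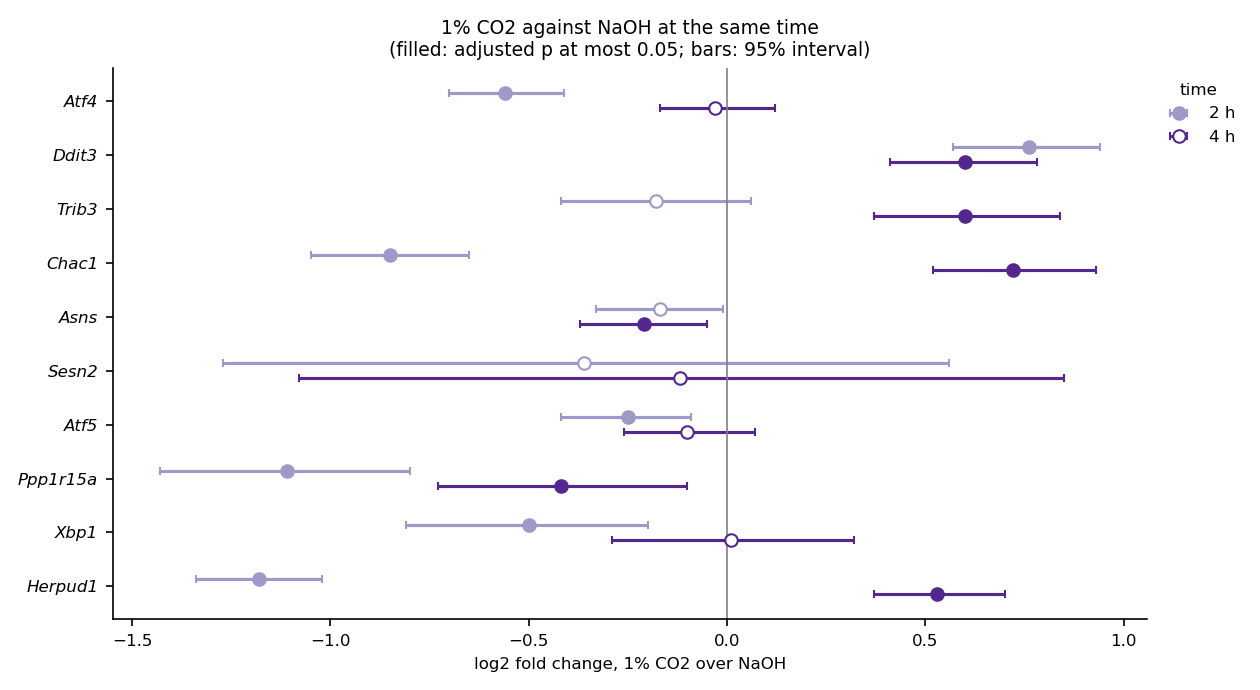
Log2 fold change of 1% CO2 over NaOH (horizontal axis) for each gene at 2 h (light) and 4 h (dark), with 95% intervals as bars and filled points for an adjusted p of at most 0.05. Herpud1 and Chac1 lay below 0 at 2 h and above 0 at 4 h, Ddit3 lay above 0 at both times, and Sesn2 had the widest intervals.

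The change between the times was tested within each treatment and as the difference of both changes, 4 h over 2 h in 1% CO2 minus 4 h over 2 h in NaOH. In 1% CO2, 3 of the 10 genes were higher at 4 h than at 2 h and 0 lower, where 7.74% of all genes were higher, 7.55% lower and 1.33% called, with 0 of the 10 called by edgeR or DESeq2 and 0 lower at an unadjusted p under 0.05. The 3 genes were Chac1 (0.7, SE 0.1, adjusted p 8e-06), Atf4 (0.28, adjusted p 0.0068) and Trib3 (0.39, adjusted p 0.024), the last of them lost without 1% CO2 replicate 1, 2 or 4 of 2 h or 2 or 3 of 4 h. In NaOH, 6 were lower at 4 h than at 2 h, where 16% of all genes were higher, 16.5% lower and 6.8% called, with Herpud1 called (log2 fold change -1.63, 0.322-fold, SE 0.082, adjusted p 6.2e-18). Chac1 was lower by -0.88 (SE 0.1, adjusted p 2.2e-08). The count of 6 was 2 without replicate 4 of NaOH at 2 h, where Atf4 (log2 fold change -0.19, adjusted p 0.063) and Trib3 (-0.24, adjusted p 0.15) did not pass. Ppp1r15a (-0.41, adjusted p 0.034) and Xbp1 (-0.45, adjusted p 0.032) were each lost without any of 5 of the 8 libraries, namely replicates 3 and 4 at 2 h and 1, 3 and 4 at 4 h for Ppp1r15a, and replicates 1 and 4 at 2 h and 2, 3 and 4 at 4 h for Xbp1.

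The difference of both changes passed the test for 5 of the 10 genes, all positive, where 7.94% of all genes had a positive and 7.11% a negative difference, and 2 were called, against 4.49%. Herpud1 had a difference of 1.71 (SE 0.12, adjusted p 2.6e-13) and Chac1 of 1.57 (SE 0.15, adjusted p 6e-10). Trib3 had a difference of 0.78 (SE 0.17, adjusted p 0.0017), Atf4 of 0.53 (SE 0.1, adjusted p 0.00047) and Ppp1r15a of 0.7 (SE 0.23, adjusted p 0.034). Ppp1r15a did not pass the test when any of 9 libraries was left out, namely replicate 3 or 4 of 1% CO2 at 2 h, 1, 3 or 4 at 4 h, replicate 3 of NaOH at 2 h, and 1, 3 or 4 at 4 h. Xbp1 had 0.52 (adjusted p 0.12), which passed without replicate 3 of 1% CO2 at 2 h (0.66, adjusted p 0.029).

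Related genes, from lists of eIF2 kinases and machinery, other ATF4-responsive genes, amino acid supply, ER chaperones, ER-associated degradation and UPR sensors, gave the wider setting. Their counts are to be read against the shares of all genes, of which 16% rose and 12.4% fell at 2 h of 1% CO2, 20.3% and 18.9% at 4 h, 23% and 20.4% at 2 h of NaOH, and 28.2% and 26.9% at 4 h. Among eIF2 kinases and machinery, 1, 3, 2 and 6 of 11 tested genes rose at 2 h and 4 h of 1% CO2 and 2 h and 4 h of NaOH, and 1 fell in each group other than 2 h of 1% CO2. Their median log2 fold changes were -0.109, -0.003, 0.107 and 0.3, and those of all genes in the same order were -0.008, -0.008, -0.026 and 0. Ppp1r15b, the constitutive phosphatase subunit, had 667 to 736 normalized counts at 2 h of NaOH, against 262 to 316 in the control, and rose by 1.31 on the log2 scale (SE 0.088, adjusted p 4.8e-15). At 4 h of NaOH it rose by 0.38 (adjusted p 0.00049). In 1% CO2 Ppp1r15b rose by 0.29 at 2 h (adjusted p 0.013) and by 0.31 at 4 h (adjusted p 0.0059). It was lower in 1% CO2 than in NaOH at 2 h by -1.02 (adjusted p 8e-12) and differed by -0.07 at 4 h (adjusted p 0.59). The value at 2 h ranged from -1.08 to -0.9 in the alternative runs, so it was not always 2-fold, while it passed the test in each. Eif2b2, a subunit of the eIF2 exchange factor, was lower in 1% CO2 than in NaOH at 4 h by a log2 fold change of -1.07 (SE 0.097, adjusted p 4.6e-11), at 215 to 301 against 522 to 619. Its log2 fold change ranged from -1.13 to -0.97 in the alternative runs and passed the test in each. The control had 293 to 365. Against it, Eif2b2 rose by 0.78 at 4 h of NaOH (adjusted p 8.2e-09) and fell by 0.29 at 4 h of 1% CO2 (adjusted p 0.017).

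Of 13 other ATF4-responsive stress genes, 2 rose and 3 fell at 2 h of 1% CO2, 1 rose and 6 fell at 4 h, 6 rose and 1 fell at 2 h of NaOH, and 6 rose and 5 fell at 4 h, with medians of -0.109, -0.18, 0.361 and 0.197, beside the same shares of 16% and 12.4%, 20.3% and 18.9%, 23% and 20.4%, and 28.2% and 26.9% of all genes. In 1% CO2 against NaOH, 1 was higher at 2 h with 9 lower, and at 4 h 2 exceeded NaOH while 8 lay below it, where 14.9% of all genes were higher with 17.1% lower at 2 h, and 16.3% with 19.2% at 4 h. Atf3, a transcription factor that ATF4 induces and that is also an immediate early gene, had 633 to 876 normalized counts at 2 h of NaOH and 28.5 to 50.4 at 4 h, against 65.6 to 73.5 in the control. It rose by 3.43 on the log2 scale at 2 h of NaOH (SE 0.13, adjusted p 4e-22) and fell by 0.67 at 4 h (adjusted p 0.0011). In 1% CO2 at 2 h Atf3 had 58.4 to 83.4, a log2 fold change of 0.01 (adjusted p 0.96), and at 4 h it had 30.1 to 57 and fell by 0.77 (adjusted p 0.00071). Vegfa, the angiogenic growth factor, rose by 1.91 at 2 h and 1.29 at 4 h of NaOH (adjusted p 3.2e-21 and 2.9e-16), at 1360 to 1610 and 939 to 1000 against 379 to 421. Bbc3, which encodes the pro-apoptotic protein PUMA, fell by 2.37 at 2 h and fell by 2.27 at 4 h of NaOH (adjusted p 3.9e-16 and 1.8e-16), to 25.1 to 41.6 and 33 to 42.2 against 175 to 191, and fell by 0.82 at 2 h and fell by 0.69 at 4 h of 1% CO2 (adjusted p 7.4e-07 and 1.2e-05). Tnfrsf10b of the same list, chosen after its values were seen, went the other way. It rose by 1.28 at 2 h and 0.85 at 4 h of 1% CO2 (adjusted p 8e-10 and 7e-06). With NaOH it rose by 1.98 at 2 h and 1.49 at 4 h (adjusted p 1.9e-15 and 4.5e-12). No other gene of the list was called at 2 h of 1% CO2.

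Of 16 tested genes of amino acid synthesis and transport, 2 rose and 3 fell at 2 h of 1% CO2, 7 rose and 3 fell at 4 h, 8 rose at 2 h of NaOH, and 8 rose and 3 fell at 4 h, with medians of -0.037, 0.18, 0.328 and 0.364. The counts at 2 h of 1% CO2 were near the 16% and 12.4% of all genes, and at 4 h, 2 h of NaOH and 4 h of NaOH all genes had 20.3%, 23% and 28.2% higher and 18.9%, 20.4% and 26.9% lower. In 1% CO2 against NaOH, 10 were lower at 2 h, and at 4 h 7 were lower while 3 exceeded NaOH, where 17.1% and 19.2% of all genes were lower and 16.3% were higher at 4 h. Slc7a1, a cationic amino acid transporter, rose by 1.59 at 2 h of NaOH (SE 0.11, adjusted p 3.9e-15) and by 0.72 at 2 h of 1% CO2 (SE 0.11, adjusted p 1.6e-06), at 420 to 540 and 256 to 278 against 150 to 172. At 4 h Slc7a1 rose by 1.17 with NaOH (adjusted p 9.9e-12), or 0.98 to 1.24 in the alternative runs, and by 0.89 in 1% CO2 (adjusted p 2.4e-08). Slc7a11, the cystine transporter subunit, rose by 1.9 at 4 h of 1% CO2 (SE 0.34, adjusted p 2.8e-05), a gene of few UMIs, with 10.5 to 22.1 against 3.2 to 5.57. At 4 h of NaOH its log2 fold change was 0.69 (adjusted p 0.14), and 1% CO2 lay above NaOH at 4 h by 1.2 (adjusted p 0.0041). Slc7a11 also rose by 1.07 at 2 h of 1% CO2 (adjusted p 0.028) and by 1.12 at 2 h of NaOH (adjusted p 0.021). The first of these did not pass without replicate 2 or 4 of that group or control replicate 3 or 4, with values down to 0.83 (adjusted p 0.15), nor with DESeq2 (0.78, adjusted p 0.057), and the last did not without replicate 2 or 4 of NaOH or control replicate 4 (down to 0.98, adjusted p 0.054).

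Of 18 tested ER chaperones and folding enzymes, 2 rose at 2 h of 1% CO2, 9 rose at 4 h, 3 rose and 3 fell at 2 h of NaOH, and 4 rose and 6 fell at 4 h. Of all genes, 16%, 20.3%, 23% and 28.2% rose in these groups and 20.4% and 26.9% fell at 2 and 4 h of NaOH. Their median log2 fold changes were 0.107, 0.271, -0.048 and -0.027. In 1% CO2 against NaOH, 5 were higher at 2 h, 3 without replicate 3 of 1% CO2 and 2 without replicate 3 of NaOH, and 7 were higher at 4 h, where 14.9% and 16.3% of all genes were. Of 14 ER-associated degradation and translocation genes, 5, 4, 6 and 4 rose at 2 h and 4 h of 1% CO2 and 2 h and 4 h of NaOH, and with NaOH 1 fell at 2 h and 4 at 4 h, the counts at 4 h of NaOH being near the shares of all genes. Of 4 UPR sensor and ATF6 processing genes, 1 rose in each group other than 2 h of 1% CO2. Examples chosen after their values were seen are Hspa5, the main ER chaperone BiP, with log2 fold changes of 0.21, 0.22, 0 and 0.06 that did not pass the test, and Creld2, which rose by 0.59 at 4 h of 1% CO2 (SE 0.091, adjusted p 2.8e-06) and fell by 0.23 at 4 h of NaOH (adjusted p 0.036).

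**Figure D4:**
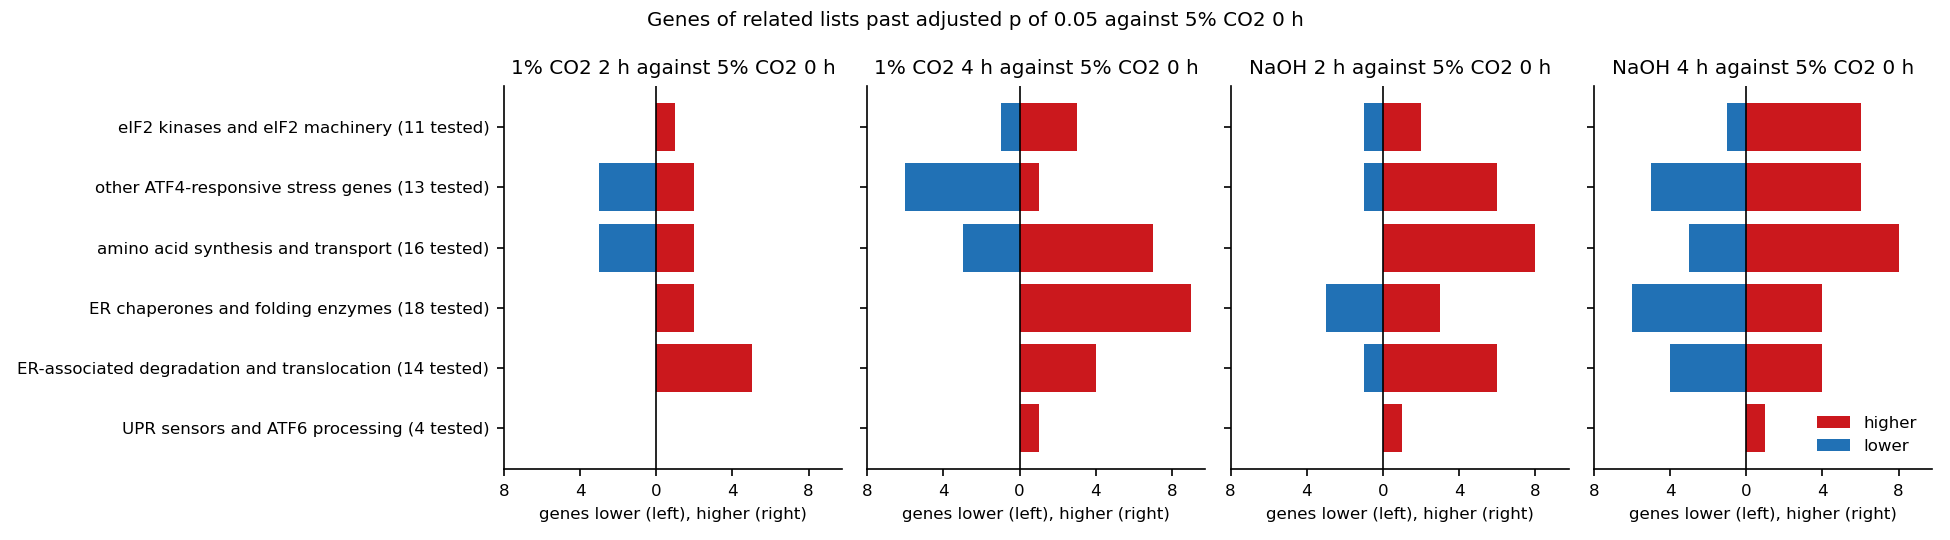
Number of genes of each list past an adjusted p of 0.05 against 5% CO2 at 0 h, with genes that fell to the left of 0 and genes that rose to the right, in the 4 treated groups. The ER chaperones and folding enzymes had 9 genes higher at 4 h of 1% CO2, and 4 higher and 6 lower at 4 h of NaOH.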

How the data were processed

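NIH3T3 libraries were prepared by bulk MARS-seq, which tags 1 molecule at its 3′ end with a UMI, and the deposited table gives 20 libraries. The authors trimmed reads with cutadapt, aligned them to mm10 with STAR (version 2.4.2a in the submitters' processing notes) and deposited raw UMI counts, obtained with HTSeq in union mode over RefSeq genes. The deposited normalized signal is the count divided by the authors' DESeq2 size factor of each library, and was used only to check the counts.

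edgeR tested the 9726 of 11075 genes whose normalized counts averaged 5 or more (version 4.0.16, TMM scaling, quasi-likelihood F test, all 20 libraries in 1 fit, Benjamini-Hochberg adjustment), under R 4.3.3, with DESeq2 1.42.0 as an alternative. Standard errors are the size of the log2 fold change over the root of the F statistic, and 95% intervals are 1.96 standard errors. Groups were taken from the sample labels. Overlapping genes were looked up in GENCODE, while the counts used RefSeq genes that the authors extended at both ends. A gene named as overlapping may therefore be absent from the counted annotation, and overlaps made by the extension were not looked up. Fits were checked on simulated counts with known changes. Principal components used log2 CPM with a prior count of 2.

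The 10 genes and the related lists were chosen with earlier results of these data known, so no list is independent support. Genes named from the related lists were the 3 with the smallest adjusted p among those called in a comparison with 0 h or between treatments at 1 time, plus any called against their list's direction. Hspa5, Creld2 and Tnfrsf10b were named as well and were chosen after their values were seen. Genes like a called gene were the 3 with the highest correlation of log2 CPM, at a mean of at least 20. Alternatives were DESeq2, its size factors in edgeR, library size alone, no filter on low counts, a minimum mean of 20, a replicate block, the groups compared alone and each library left out in turn.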

Additional observations from a re-analysis of the deposited data

Results flagged for a closer look

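Among 50 groups of 4 libraries, 10 genes in 5 groups, 1 held a library far from the others by Dixon's test, and chance gives about 5% of groups. Trib3 had a normalized count of 232 in replicate 1 of 4 h of NaOH, against 193 to 196 in the other 3 libraries of that group.

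The change between 2 and 4 h differed between 1% CO2 and NaOH for 5 genes, tested as the interaction of time and treatment in edgeR. The log2 differences, 1% CO2 minus NaOH, were 1.71 for Herpud1, 1.57 for Chac1, 0.78 for Trib3, 0.7 for Ppp1r15a and 0.53 for Atf4. Of these, Ppp1r15a did not pass the test when any of 9 of the 16 libraries was left out, and the other 4 passed it in each alternative run.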

How the results depend on the processing

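Of 52 changes of the 10 genes past an adjusted p of 0.05 in the 9 comparisons, 35 kept it in every alternative run and 17 lost it in at least 1, none of them with a reversed sign. The number of genes called was lower with a minimum mean of 20, at 330 at 2 h of 1% CO2, 469 at 4 h, 716 at 2 h of NaOH and 987 at 4 h. It was 367 and 366 for 1% CO2 against NaOH at 2 and 4 h, and 59 and 394 for 4 h against 2 h in 1% CO2 and in NaOH, and DESeq2 gave 68 and 426 for the last 2. A minimum mean of 20 leaves fewer genes in the test, and the part of this in the lower counts was not tested. Of the 10 genes, DESeq2 called 1 at 2 h of 1% CO2. Library size alone called 2 at 2 h and 2 at 4 h of NaOH and 1 for 1% CO2 against NaOH at 2 h. Leaving out libraries gave 1 to 2 called at 2 h of 1% CO2, 0 to 1 at 2 h of NaOH, 1 to 2 for 1% CO2 against NaOH at 2 h, and 2 to 7 changed for 4 h against 2 h of NaOH.

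Differences that did not pass the test changed sign in some alternatives. Library size alone moved the median of all genes to -0.069 and -0.122 at 2 and 4 h of 1% CO2 and -0.214 and -0.191 at 2 and 4 h of NaOH. With it, at 2 h of 1% CO2, Asns was -0.03 and Atf5 -0.04, at 4 h Asns was -0.02, at 2 h of NaOH Ppp1r15a was -0.11, at 4 h Atf5 was -0.1 and Xbp1 -0.04, and Atf4 in 1% CO2 against NaOH at 4 h was 0.05. Atf5 at 4 h of 1% CO2 was 0 with DESeq2, with its size factors and with the groups compared alone. With libraries left out, the values ranged as follows. At 2 h of 1% CO2, Asns ranged from -0.02 to 0.08, Atf5 from -0.04 to 0.08 and Xbp1 from -0.04 to 0.18. At 4 h Atf5 ranged from -0.06 to 0.05. At 2 h of NaOH, Ppp1r15a ranged from -0.12 to 0.19 and Sesn2 from -0.35 to 0.18. In 1% CO2 against NaOH at 4 h, Sesn2 ranged from -0.54 to 0.24 and Xbp1 from -0.15 to 0.1. The labels do not say what libraries with the same replicate number share. Correlations of same-numbered deviations were -0.23 to 0.189 in 40 pairs, with 3 over 0.1, which does not settle whether the libraries were paired. With the replicate block, Sesn2 at 2 h of NaOH was 0.02, and 8 changes with a main adjusted p of 0.032 to 0.047 came to 0.053 to 0.064, namely Herpud1 at 4 h of 1% CO2, Asns at 2 h and Ppp1r15a at 4 h of NaOH, both in 1% CO2 against NaOH at 4 h, Ppp1r15a and Xbp1 for 4 h against 2 h of NaOH, and Ppp1r15a for the difference of both changes. The cause of these shifts was not tested. Depth limits Sesn2.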

Other observations

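Genes whose log2 CPM across the 20 libraries was most like that of a called gene, among 7671 candidates, were described by Pearson's r, with the 5 groups and their shared treatments behind every pair. For Trib3 they were Sesn1 (0.926), Klhl22 (0.902) and Ing4 (0.897), for Ppp1r15a they were Fbxo28 (0.879), Gpsm1 (0.866) and Rab24 (0.856), and for Herpud1 they were Dusp16 (0.948), Plk2 (0.939) and Cited2 (0.938). Between the 10 genes, the r largest in size over the same 20 libraries were -0.82 for Atf4 and Ddit3 and 0.74 for Atf4 and Xbp1. They were followed by 0.72 for Chac1 and Herpud1, -0.66 for Ddit3 and Asns, and 0.63 for Ddit3 and Trib3. Next came 0.62 for Atf4 and Atf5, -0.61 for Trib3 and Asns, and 0.61 for Atf5 and Xbp1.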
